A study of Mus musculus with 84 samples.

Results

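The transcription factors described here are 7 genes on which intestinal epithelial identity depends, Hnf4a, Hnf4g, Cdx1, Cdx2, Klf4, Klf5 and Gata6. They were taken by symbol from the 25494 genes of the RNA-seq count table. Peaks of the histone marks H3K27ac and H3K4me1 and of the factor HNF4a were counted at a locus when they overlapped the gene extended by 10 kb on each side. In all, 42 of the 49525 merged HNF4a sites lay in these 7 windows. The samples were colon epithelium of C57BL/6 mice. Mice of both sexes kept long-term on a high fat diet (HFD) or low fat diet (LFD) gave 3 H3K27ac and 3 H3K4me1 libraries per sex and diet, and the males gave 2 HNF4a libraries per diet. In the transplantation experiment, male germ-free recipients were gavaged with stool of male donors on the HFD (high fat bacteria, HFB) or on the LFD (low fat bacteria, LFB) and were themselves fed the HFD or the LFD. The 4 groups, HFDHFB, HFDLFB, LFDHFB and LFDLFB, had 3 RNA-seq libraries each and 3 H3K27ac libraries each, apart from 2 H3K27ac libraries for HFDHFB. Every recipient therefore carried transplanted bacteria, and no germ-free recipient is among the samples. By the study's methods the RNA came from cells scraped from the colon, whereas chromatin came from epithelium released with EDTA. In bulk RNA, fewer cells of a type and less RNA per cell cannot be told apart.

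HNF4A and HNF4G are nuclear receptors with the same DNA-binding preference. They maintain the genes of lipid handling and of the brush border in enterocytes. CDX1 and CDX2 are caudal-type homeobox factors, and CDX2 sets intestinal against gastric or oesophageal fate in the embryo and keeps it in the adult. KLF4 and KLF5 are zinc-finger factors of one family with contrasting patterns, KLF4 in differentiated surface and goblet cells and KLF5 in dividing crypt cells. GATA6 is a zinc-finger factor of crypt and differentiated cells and the GATA family member that persists along the colon. H3K27ac marks active enhancers and promoters, and H3K4me1 marks enhancers whether active or poised.

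HNF4a occupied sites at its own gene and at those of the other factors. The sequences below are the stretches shared by the peaks of all 4 HNF4a libraries at 9 such sites, read from the plus strand of mm9 and named by gene and by distance in bp from the nearest start of that gene's own transcripts. They are shown because these sites had a peak in every HNF4a library, and they are all such sites at the 7 loci apart from those at Cdx1. The capitals mark exact HNF4 cores (CAAAGTCCA, CAAAGTTCA, CAAAGGCCA or CAAAGGTCA) and CDX2 cores (TTTATGG or TTTATTG) on either strand. The Hnf4g site at −51065 was taken by a rule that required an HNF4 core, and the others were added after the sites had been seen.
Hnf4a +13301, chr2:163389055-163389186: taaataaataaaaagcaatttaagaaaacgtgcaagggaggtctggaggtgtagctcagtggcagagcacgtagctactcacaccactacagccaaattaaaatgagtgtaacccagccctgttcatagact
Hnf4a +24502, chr2:163400241-163400422: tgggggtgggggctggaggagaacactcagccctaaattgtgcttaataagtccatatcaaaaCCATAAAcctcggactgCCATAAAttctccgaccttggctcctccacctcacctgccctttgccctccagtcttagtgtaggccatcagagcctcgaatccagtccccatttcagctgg
Hnf4a +30290, chr2:163406068-163406170: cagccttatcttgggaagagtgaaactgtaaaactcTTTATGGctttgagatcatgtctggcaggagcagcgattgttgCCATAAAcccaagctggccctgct
Hnf4g +10070, chr3:3518033-3518150: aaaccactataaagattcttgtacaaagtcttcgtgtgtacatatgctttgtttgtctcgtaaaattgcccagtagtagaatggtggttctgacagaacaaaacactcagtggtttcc
Hnf4g −53216, chr3:3580835-3581031: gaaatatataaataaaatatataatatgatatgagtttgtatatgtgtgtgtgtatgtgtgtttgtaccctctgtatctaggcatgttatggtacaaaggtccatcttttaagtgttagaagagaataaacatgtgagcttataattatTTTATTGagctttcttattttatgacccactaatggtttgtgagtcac
Hnf4g −51065, chr3:3582969-3583187: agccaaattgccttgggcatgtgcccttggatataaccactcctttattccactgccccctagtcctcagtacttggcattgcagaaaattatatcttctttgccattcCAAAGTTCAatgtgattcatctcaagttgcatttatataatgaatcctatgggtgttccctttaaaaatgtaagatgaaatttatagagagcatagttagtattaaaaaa
Cdx2 −201, chr5:148118971-148119144: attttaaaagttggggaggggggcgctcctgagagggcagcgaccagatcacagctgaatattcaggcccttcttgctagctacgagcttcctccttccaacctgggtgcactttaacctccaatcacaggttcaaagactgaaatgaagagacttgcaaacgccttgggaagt
Cdx2 +7507, chr5:148111259-148111428: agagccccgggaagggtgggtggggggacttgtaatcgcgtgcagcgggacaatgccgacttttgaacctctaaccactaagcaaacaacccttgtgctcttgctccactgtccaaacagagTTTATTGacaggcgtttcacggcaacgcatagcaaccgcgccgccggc
Klf5 +6511, chr14:99704345-99704482: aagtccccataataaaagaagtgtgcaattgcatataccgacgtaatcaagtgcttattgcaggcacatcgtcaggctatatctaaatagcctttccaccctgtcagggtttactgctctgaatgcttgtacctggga
The Hnf4a stretch at +13301 lies in an intron and holds neither core, and those at +24502 and +30290 lie downstream of the gene and hold 2 CDX2 cores each. The Hnf4g stretches lie in introns. The one at −51065 holds the HNF4 core CAAAGTTCA, the one at −53216 holds 1 CDX2 core and the one at +10070 holds neither. The Cdx2 stretch at −201 lies just upstream of the start of the gene and holds neither core, and the one at +7507 holds 1 CDX2 core downstream of the gene. The Klf5 stretch lies in an intron and holds neither.

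The 12 RNA-seq libraries held 39904191 to 48026846 reads counted in genes. All 7 factors were detected in each of them and passed the filter on low counts, which 15893 genes passed. Library LFDHFB replicate 3 stood apart from both others of its group, with chi-square values per degree of freedom of 368 and 372 against 41.7 to 154 for the other replicate pairs. Library-scaled read counts (CPM) summed over 8 epithelial markers, Epcam and Krt8 among them, ranged from 12868 to 15112 in HFDHFB, 10530 to 13659 in HFDLFB, 9808 to 15520 in LFDHFB and 13845 to 14985 in LFDLFB. The scraped samples also carried RNA of the gut wall. Sums over 8 smooth muscle markers ranged from 2130 to 7493 CPM in HFDHFB, 1229 to 5325 in HFDLFB, 2265 to 5854 in LFDHFB and 2408 to 4876 in LFDLFB. Those of adipocyte markers ranged from 49.0 to 475 CPM in HFDHFB, 391 to 3514 in HFDLFB, 39.2 to 1237 in LFDHFB and 112 to 240 in LFDLFB. Those of mesothelial markers ranged from 54.0 to 111, 99.8 to 518, 83.0 to 137 and 58.8 to 213 CPM in the same order. No marker of these lists was at 0 in any library. The labels do not say that replicates were separate animals, so p-values measure only the spread between these libraries, which may be technical.

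**Figure D1:**
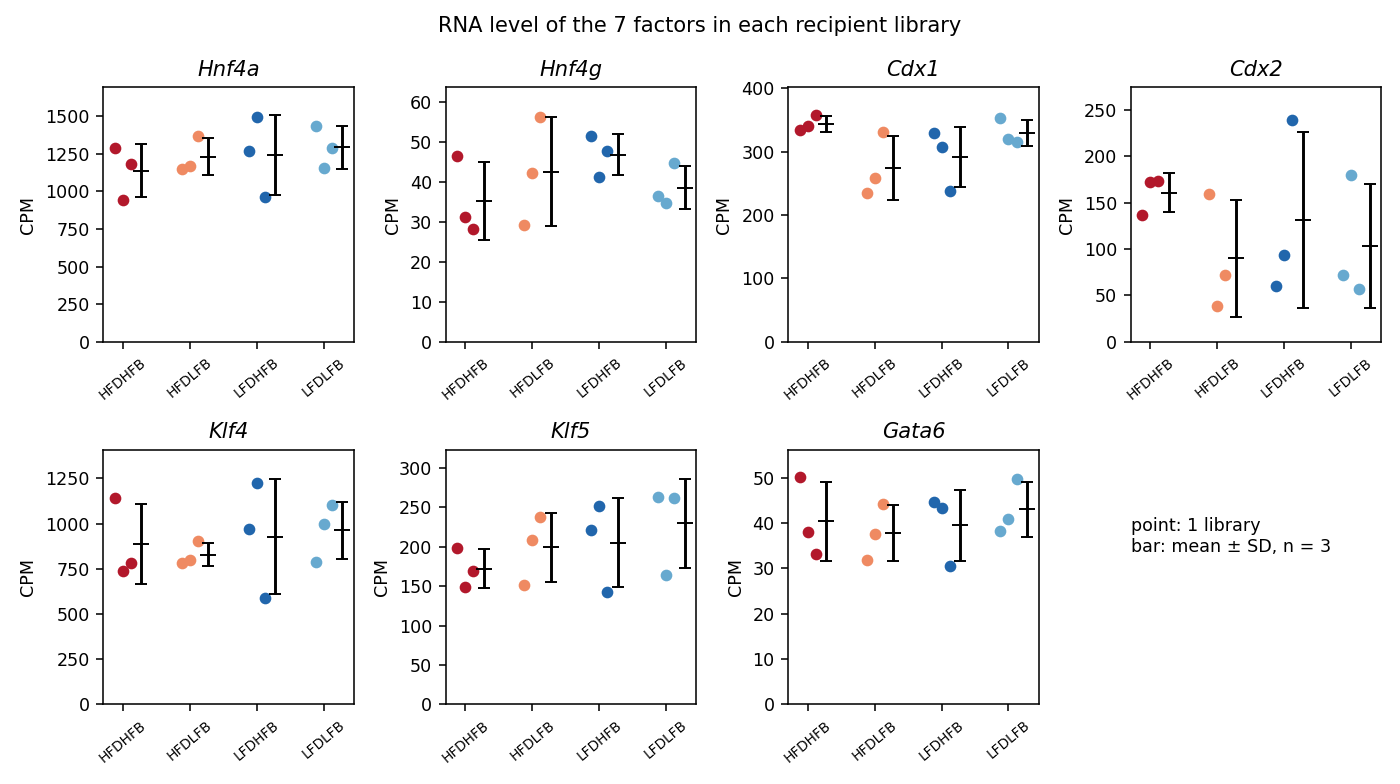
Level of each factor in every RNA-seq library, as TMM-normalized CPM on a linear axis from 0, by recipient group. Points are libraries and the bars give the mean ± SD of 3 libraries. Cdx2 runs from 38.1 to 239 CPM, whereas Cdx1 stays between 235 and 358 CPM.

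Levels between genes were compared per kb of exon. Klf4 had the highest median over the 12 libraries, 278 CPM per kb, followed by Hnf4a with 244, Cdx1 with 186, Klf5 with 118, Cdx2 with 51.0, Gata6 with 12.4 and Hnf4g with 9.60. Neighbours in this order held their places in nearly every library. Klf4 was above Hnf4a in 11 of 12 libraries, Hnf4a above Cdx1 in 11, Cdx1 above Klf5 in 12, Klf5 above Cdx2 in 11, Cdx2 above Gata6 in 12 and Gata6 above Hnf4g in 11. The closest neighbours were Klf4 and Hnf4a, whose ratio within a library ran from 0.902 to 1.45. Set among 25 other intestinal transcription factors, Klf4, Hnf4a and Cdx1 took ranks 2, 3 and 4 of 32, behind the epithelial factor Elf3, while Gata6 ranked 21 and Hnf4g 24.

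The 3 families were each led by 1 member. Hnf4a was 17.5 to 36.2 times as abundant as Hnf4g per kb of exon in the 12 libraries, with a median ratio of 25.6. Cdx1 exceeded Cdx2 by a median ratio of 3.70, with a range of 1.29 to 8.74. Klf4 exceeded Klf5 by a median ratio of 2.53, with a range of 1.69 to 3.41. In each of these families the same member was ahead in all 12 libraries.

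Cdx2 varied far more between libraries of the same group than any other of the 7 factors. Its level was 137, 172 and 174 CPM in the HFDHFB libraries (replicates 1 to 3). It was 160, 38.1 and 71.9 CPM in HFDLFB, 60.1, 93.9 and 239 CPM in LFDHFB, and 72.1, 180 and 57.4 CPM in LFDLFB. The 3 HFDHFB libraries lay close together, and the highest library of each other group was 3.13 to 4.19 times its lowest, so that the 4 groups overlapped. The largest value was that of the library that stood apart, LFDHFB replicate 3. The SD of log2 CPM within groups was 0.851 for Cdx2, above that of 96.9% of the 9300 genes with a mean of at least 10 CPM, whose median was 0.203. It was 0.350 for Klf5, 0.345 for Klf4, 0.330 for Hnf4g, 0.264 for Gata6, 0.224 for Hnf4a and 0.185 for Cdx1. The CDX pair thus held both the most variable and the least variable of the 7. Without LFDHFB replicate 3 the SD of Cdx2 was 0.750, above 97.5% of those genes. Outside the 7, the listed intestinal factor Isx, named after its values were seen, also spread widely within groups. Isx is also in the list of CDX2 targets used below and, like Cdx2, was highest in LFDHFB replicate 3. It had 57.4, 87.6 and 74.7 CPM in HFDHFB and 87.7, 18.3 and 41.2 in HFDLFB (replicates 1 to 3). In LFDHFB it had 16.2, 48.6 and 237 CPM, and in LFDLFB 14.3, 61.1 and 11.3. These values describe the libraries and were not tested.

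**Figure D2:**
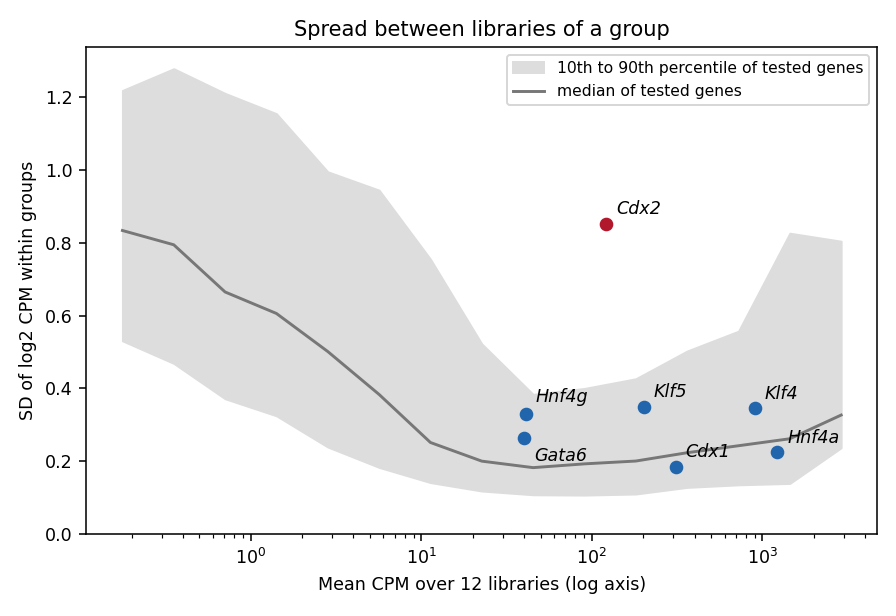
SD of log2 CPM within groups against mean level (log axis) for the genes tested, with the 7 factors labelled. Cdx2, at 0.851, sits well above the bulk of genes of its level, and Cdx1, at 0.185, sits within it.

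Over the 12 libraries Cdx2 ran most clearly opposite to Klf5. Its Pearson correlation of log2 CPM was −0.81 with Klf5 (Spearman −0.76), −0.57 with Hnf4a (−0.52), −0.50 with Gata6 (−0.51), −0.47 with Hnf4g (−0.43) and −0.36 with Klf4 (−0.45). With Cdx1 it was −0.11 and the Spearman value 0.06, but with group means removed the Pearson value was −0.54 (Klf5 −0.84, Klf4 −0.44). Without the libraries farthest from the median of Cdx2, HFDLFB replicate 2 and LFDHFB replicate 3, the value for Klf5 was −0.90 over 10 libraries. Among the other 6 factors the values ran from −0.02 to 0.88, the highest being Hnf4a with Klf5 (0.88) and Klf4 with Gata6 (0.86). The points share their libraries and their scaling to total reads. Cdx2 also moved with gut-wall RNA, with 0.77 against summed enteric neuron and glia markers and 0.73 against smooth muscle markers, where Klf5 had −0.91 and −0.80. The neuron and glia sums ranged from 40.1 to 134 CPM in HFDHFB, 39.4 to 147 in HFDLFB, 49.3 to 264 in LFDHFB and 41.9 to 145 in LFDLFB. Without LFDHFB replicate 3 the values over 11 libraries were −0.76 for Cdx2 with Klf5, 0.70 for Cdx2 with neuron and glia markers and 0.69 with smooth muscle markers. The part of these cells in the Cdx2 values was not tested. Cdx2 had −0.19 with the epithelial markers, against 0.83 for Klf4, 0.76 for Gata6, 0.76 for Cdx1, 0.70 for Hnf4a and 0.61 for Klf5.

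Genes most like each factor were listed by Pearson correlation of log2 CPM over the same 12 libraries, the top 3 of all genes tested. For Cdx2 these were Guca2a, which encodes the gut peptide guanylin (0.976), B4galnt1, a ganglioside synthase (0.976), and Prpsap1 (0.970). Guca2a itself ran from 423 to 2520 CPM. For Cdx1 they were Plekhd1os, Mrps35 and Nudt9 (0.951 to 0.968), and for Klf5 Spata13, Adgra3 and Snx9 (0.961 to 0.977). For Hnf4a they were Dlg3, Zfp592 and the membrane protease gene Tmprss4 (0.945 to 0.970), and for Hnf4g Ikzf5, Ercc6 and Stt3b (0.943 to 0.956). For Klf4 they were Upf1, Gatad2a and Bcl10 (0.935 to 0.944), and for Gata6 Xpo6, Lrrc16a and Spry2 (0.929 to 0.934). These are the highest of 15893 values over 12 libraries that share their scaling, and they were not tested.

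The study asked whether bacteria from donors on the HFD act on gene expression in recipients on either diet. None of the 7 factors passed an adjusted p of 0.05 in the quasi-likelihood test of edgeR, with HFDHFB against HFDLFB or with LFDHFB against LFDLFB. The background share of genes called was 0% in both. At an unadjusted p under 0.05 there were 1445 genes (9.09%) on the HFD and 595 (3.74%) on the LFD, none of them among the 7, and DESeq2 called 80 and 0 genes, again without any of the 7. Log2 fold changes of the factors on the HFD ran from −0.27 for Hnf4g to 0.84 for Cdx2. Single libraries moved both, Hnf4g to −0.52 without HFDHFB replicate 1 and −0.0088 without HFDLFB replicate 3, and Cdx2 to 1.55 without HFDLFB replicate 1 and 0.47 without HFDLFB replicate 2. The interval for Cdx2 was wide, from −0.51 to 2.19 around 0.84 ± 0.61 (SE, adjusted p = 0.717, edgeR). Hnf4a, by contrast, was placed within −0.52 to 0.30, around −0.11 ± 0.19 (adjusted p = 0.897, edgeR). On the LFD the values ran from −0.17 for Cdx1 to 0.35 for Cdx2, with adjusted p-values from 0.977 to 0.991. The sign for Cdx2 on the LFD rested on LFDHFB replicate 3, since the log2 fold change was −0.42 without it, and that of Cdx1 was −0.047 without it.

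The groups of Cdx1 did not overlap on the HFD. Its level was 334, 340 and 358 CPM in HFDHFB and 235, 258 and 331 CPM in HFDLFB. It was 330, 308 and 239 CPM in LFDHFB and 353, 320 and 315 CPM in LFDLFB. All HFDHFB values lay above all HFDLFB values, and the LFD-fed groups overlapped. Such separation was found for 13% of the genes tested on the HFD, with HFDHFB higher for 8.11%, and for 10.8% on the LFD. It held for 1 of the 7 on the HFD, which is near this background, and for none on the LFD. The log2 fold change on the HFD was 0.33 ± 0.16 (SE, adjusted p = 0.561, edgeR), a 1.25-fold difference, and on the LFD −0.17 ± 0.16 (adjusted p = 0.977). The interaction, the difference between these 2 effects, was 0.50 ± 0.22 with an interval of 0.017 to 0.982 (adjusted p = 0.434, edgeR). It was the only one of the 7 with an unadjusted p under 0.05 there, beside 1799 genes (11.3%) in all and none after adjustment (0%), where DESeq2 called 73. When libraries were scaled to the epithelial markers, the interaction of Cdx1 was 0.15. Over the 12 libraries Cdx1 had a correlation of 0.76 with the epithelial markers, −0.74 with fibroblast, −0.71 with adipocyte and −0.67 with mesothelial markers. Their part in the Cdx1 values was not tested.

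Hnf4g had the next smallest p for the interaction. Its level was 46.5, 31.2 and 28.3 CPM in HFDHFB, 29.2, 42.3 and 56.4 in HFDLFB, 51.6, 41.3 and 47.8 in LFDHFB and 36.4, 34.7 and 44.7 in LFDLFB. The HFD-fed groups spread widely and overlapped. The bacteria effect was −0.27 ± 0.24 on the HFD and 0.28 ± 0.24 on the LFD, with an interaction of −0.55 ± 0.34 (SE, adjusted p = 0.566, edgeR), which was −0.28 without HFDLFB replicate 3. For the remaining factors the interaction had adjusted p-values of 0.811 to 0.972.

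**Figure D3:**
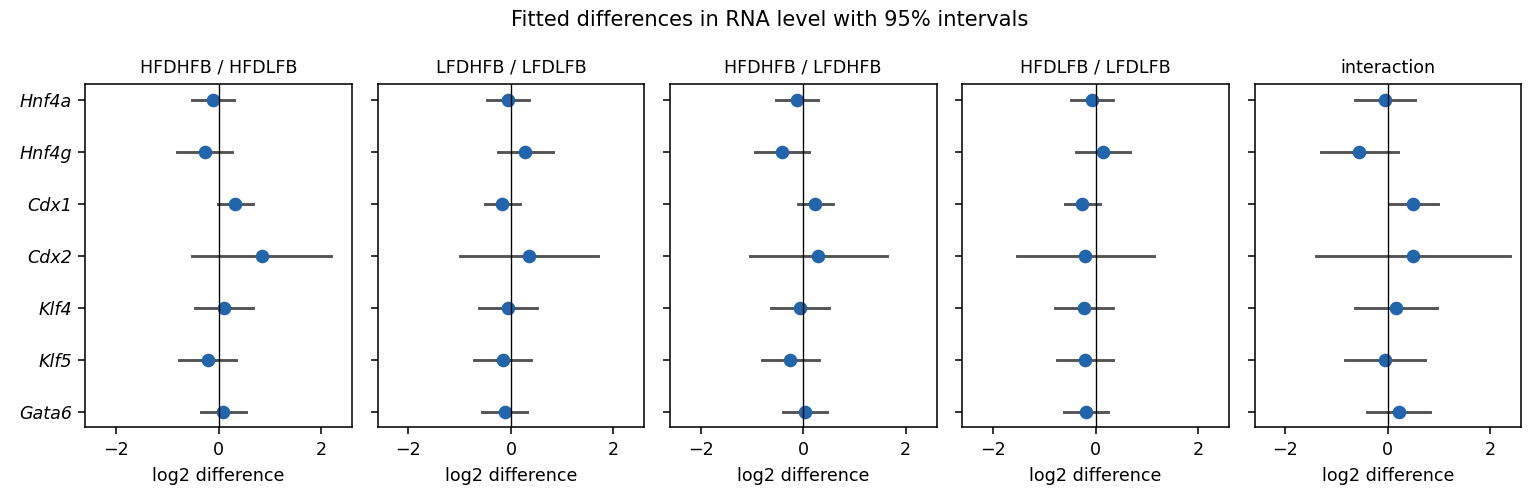
Log2 fold change of the 7 factors in the comparisons between recipient groups, with 95% intervals from edgeR. Every interval but that of Cdx1 in the interaction, 0.017 to 0.982, includes 0, and those of Cdx2 are the widest.

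The diets were compared at each donor, with groups shared with the comparisons above. With HFB, HFDHFB against LFDHFB, log2 fold changes ran from −0.41 for Hnf4g to 0.30 for Cdx2, and with LFB, HFDLFB against LFDLFB, from −0.26 for Cdx1 to 0.14 for Hnf4g. The value for Cdx2 with HFB was −0.049 without LFDHFB replicate 1, and that for Hnf4g with LFB was −0.12 without HFDLFB replicate 3. None of the 7 passed an adjusted p of 0.05 or an unadjusted p under 0.05. Among all genes 0% were called by edgeR in both, 1191 (7.49%) and 854 (5.37%) had an unadjusted p under 0.05, and DESeq2 called 126 and 9. Cdx1 was the 1 of the 7 whose groups did not overlap with HFB, at 0.24 ± 0.16 (SE, adjusted p = 0.809, edgeR), again near the background, since 11% of genes had such groups and 7.47% in this direction. Without LFDHFB replicate 3 it was 0.11. With LFB, where 11.7% of genes and none of the 7 were separated, it was −0.26 ± 0.16 (adjusted p = 0.882, edgeR). Hnf4a had a mean of 1138 ± 177 CPM in HFDHFB, 1229 ± 123 in HFDLFB, 1243 ± 267 in LFDHFB and 1292 ± 141 in LFDLFB (SD, n = 3 each). Klf4 had 887 ± 221, 829 ± 65.2, 928 ± 319 and 962 ± 158 CPM in the same order. Klf5 ranged from 149 to 198 CPM in HFDHFB, 152 to 238 in HFDLFB, 143 to 252 in LFDHFB and 165 to 263 in LFDLFB. Gata6 had 40.3 ± 8.72, 37.9 ± 6.15, 39.5 ± 7.81 and 43.0 ± 6.01 CPM. For these 4 factors the groups overlapped in each of the comparisons.

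Genes that the factors are known to control were counted in the same way. No gene of the lists of HNF4 targets (10), CDX2 targets (8, of which 7 passed the filter), KLF4 and KLF5 targets (8), GATA6 partners and targets (5) or other intestinal factors (25) passed an adjusted p of 0.05 in any of the 5 comparisons. For HFDHFB against HFDLFB, their median log2 fold changes were 0.17, −0.07, 0.40, −0.15 and 0.16, against −0.002 for all genes tested, and those with an unadjusted p under 0.05 numbered 2, 1, 3, 0 and 3, where 9.09% of all genes had one. Named after their values were seen, these were the apolipoprotein genes Apoa1 and Apoa4, the mucin gene Muc2, the cell cycle genes Ccnd1, Ccnb1 and Cdk1, and the secretory-lineage factors Foxa3, Atoh1 and Spdef. Both apolipoprotein genes were near the floor and highest in HFDHFB replicate 3. Apoa1 had 0.48, 1.16 and 4.49 CPM in HFDHFB and 0.51, 0.19 and 0.57 in HFDLFB (replicates 1 to 3). Apoa4 had 0.58, 0.28 and 4.30 CPM against 0.16, 0.46 and 0.21. In both genes these groups overlapped. Spdef, which drives goblet cell maturation, had a log2 fold change of 0.76 ± 0.24 (adjusted p = 0.494, edgeR) and Atoh1, which sets secretory fate, 0.59 ± 0.15 (adjusted p = 0.494). Muc2, a goblet cell product, had 1.47 ± 0.44 (adjusted p = 0.494). Sums over the 8 goblet markers, which include Muc2 and Spdef, overlapped, with 18436 to 25409 CPM in HFDHFB and 16347 to 20191 in HFDLFB. Of the other goblet markers, Agr2 and Spink4 were higher in every HFDHFB library, whereas Tff3, Fcgbp, Clca1 and Zg16 overlapped. A change in goblet cells was not tested. For LFDHFB against LFDLFB the medians were 0.42, 0.31, −0.06, 0.18 and −0.03, against 0.02 for all genes, and the numbers 1, 2, 0, 1 and 1 (3.74% of all genes). They were 0, 2, 1, 1 and 5 for the interaction (11.3%), 1, 1, 0, 1 and 2 for diet with HFB (7.49%) and 2, 2, 1, 0 and 3 for diet with LFB (5.37%).

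The chromatin at these genes was compared by the length under peaks. The long-term H3K27ac lists held 38317 to 42852 peaks covering 100 to 127 Mb, those of recipients 39684 to 51873 peaks covering 93.1 to 132 Mb, and the H3K4me1 lists 71853 to 79511 peaks covering 219 to 240 Mb. The lists give positions without scores or reads, so depth is unknown. All 7 loci carried peaks of both marks in every library. In the long-term mice the median share of the window under H3K27ac was 90.3% at Cdx2, 78.2% at Cdx1, 76.2% at Hnf4a, 69.4% at Klf5, 54.3% at Klf4, 34.6% at Gata6 and 16.4% at Hnf4g. The first 4 of these were above at least 99.3% of the 25334 genes with a window, and the share at Hnf4g above 76.3%. Under H3K4me1 the shares were 86.3% at Cdx1, 85.7% at Hnf4a, 84.0% at Cdx2, 57.7% at Klf5, 50.1% at Gata6, 48.3% at Klf4 and 36.5% at Hnf4g. The recipients gave the same order for H3K27ac, from 87.4% at Cdx2 to 21.0% at Hnf4g. Windows differ in length, from 25.3 kb at Klf4 to 171.8 kb at Hnf4g, and the 10 kb added on each side weighs more in a short one.

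Some of these domains were among the widest in the genome. An H3K4me1 peak of 40 to 75.2 kb (median 73.4 kb) lay in the window of Hnf4a, at chr2:163332593-163398643 in mm9, and it was the widest H3K4me1 peak of its library in 6 of the 12. The H3K27ac there was called as several narrower peaks, the widest of 10 to 33 kb in the long-term libraries and 11.2 to 20.2 kb in recipients. Peak calling bridged gaps of 400 bp for H3K4me1 but 200 bp for H3K27ac, so widths of the marks are not directly comparable. At Cdx1 (chr18:61178516-61195853) 1 H3K27ac peak of 24.0 to 28.8 kb ranked between 25 and 64 by width in the long-term libraries. In the same libraries Cdx2 (chr5:148112476-148118825) had an H3K27ac peak of 19.8 to 22.2 kb, Klf5 (chr14:99697910-99712628) one of 18.8 to 23.8 kb and Gata6 (chr18:11052508-11085633) one of 14.2 to 16.2 kb. Those at Klf4 (chr4:55540009-55545347) were 7.8 to 13.4 kb wide and those at Hnf4g (chr3:3508030-3659800) 4.4 to 9.8 kb. In recipients the widest H3K27ac peak was 12.2 to 27.6 kb at Cdx1, 10.8 to 21.4 kb at Cdx2, 17.6 to 22.6 kb at Klf5, 12.2 to 16.2 kb at Gata6, 7.2 to 11 kb at Klf4 and 8 to 17.6 kb at Hnf4g. The lowest rank by width there was 233 for Cdx1 and 643 for Cdx2. Hnf4g, which had the lowest level per kb of exon, also had the smallest covered share of the 7, in the longest window. In length the order differed. The long-term median under H3K27ac was 28.1 kb at Hnf4g, above Klf5 (24.1 kb), Cdx2 (23.8 kb), Gata6 (18.4 kb) and Klf4 (13.7 kb). Klf4, which had the highest level per kb of exon, had the least covered length for both marks.

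**Figure D4:**
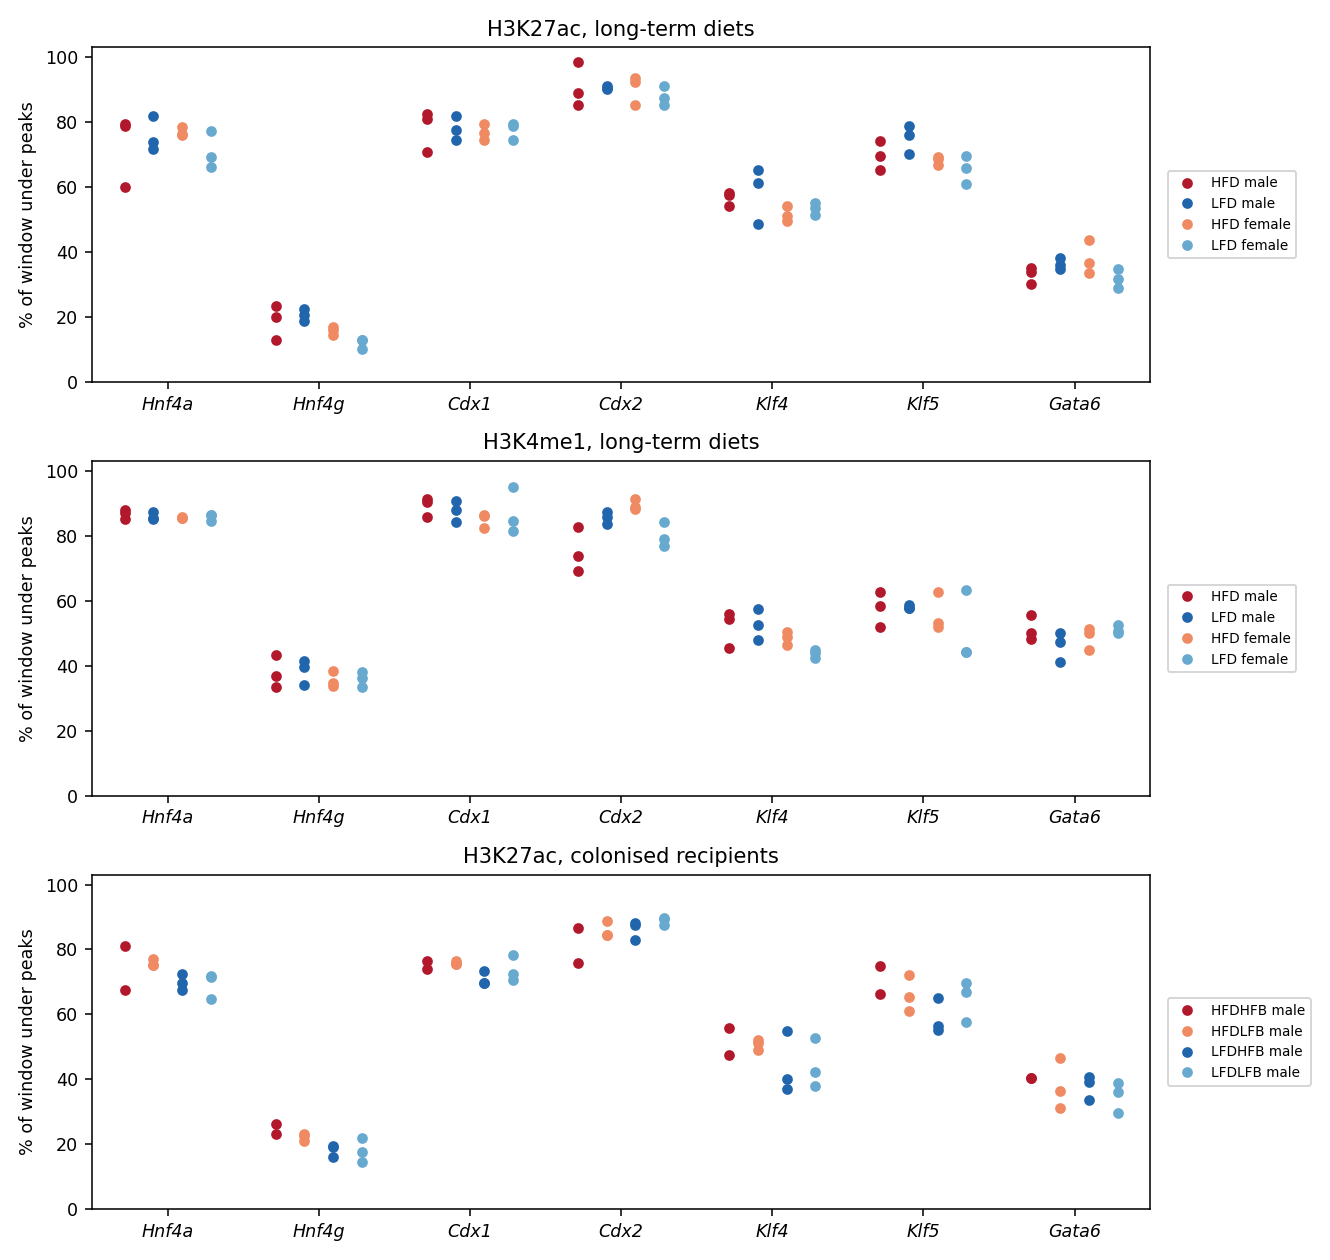
Share of each window, the gene extended by 10 kb on each side, that lies under peaks in every library, in percent, for H3K27ac and H3K4me1 in long-term mice and for H3K27ac in recipients. Points are libraries coloured by group. In each panel Cdx2, Cdx1 and Hnf4a have the 3 highest medians and Hnf4g the lowest.

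Long-term diet was compared with the sexes as strata, by two-sided exact permutation tests of covered length. None of the 7 had a p of at most 0.05 for H3K27ac, where 4.69% of 17317 genes had, or for H3K4me1, where 3.85% of 19991 genes had. The smallest permutation p was 0.54 for H3K27ac (Klf4, −0.44 kb in HFD against LFD) and 0.425 for H3K4me1 (Klf4, 0.50 kb). At Hnf4a the difference was 1.33 kb for H3K27ac and 0.20 kb for H3K4me1, of a median of 65.5 and 73.7 kb covered, and neither sign held as a share of the length covered in each library. On that scale 1 of the 7 had a p of at most 0.05 for H3K27ac, Klf5, at −15.7 bp per covered Mb (exact permutation p = 0.025). The 4.69% above is for covered length in kb, and no share of all genes is given for this scale. Within 1 sex, Hnf4g in females had separated diets for H3K27ac, with 27.2, 29 and 24.6 kb on the HFD against 22.4, 22.2 and 17.4 kb on the LFD. It was 1 of the 7 there, where 12.2% of genes were separated and 11.3% with the HFD higher, and none of the 7 was separated in males, where 5.3% were. Females on the HFD had 109 to 121 Mb under H3K27ac and those on the LFD 100 to 104 Mb, so that the whole lists moved in this direction too. The smallest p that these designs allow is 0.005, and 0% of genes passed an adjusted p of 0.05. With this floor no gene can pass unless a large share of all genes reaches it together. The adjusted p therefore decides little about a single locus, here and in the peak comparisons below.

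The effect of diet was compared between the sexes by exact permutation of the sexes within each diet. A difference between the sexes on either diet can therefore enter these p-values, which are not of the difference in effect alone. LFD females had 100 to 104 Mb under H3K27ac and 221 to 225 Mb under H3K4me1. LFD males had 111 to 125 and 233 to 240 Mb, and on the HFD the sexes overlapped. At Cdx2, H3K4me1 covered 23.2, 23.4 and 24.0 kb in HFD females and 20.2, 20.8 and 22.2 kb in LFD females. It covered 18.2, 21.8 and 19.4 kb in HFD males and 23.0, 22.0 and 22.6 kb in LFD males. The diets did not overlap in either sex, with the HFD higher in females and lower in males. Diets that did not overlap were found at 8.57% of genes in females, where Klf4 was the other of the 7, and at 7.7% in males, where Cdx2 was alone. The diet effect of males minus that of females was −5.2 kb (exact permutation p = 0.01, adjusted p = 1), with a p of at most 0.05 for 4.09% of genes. As a share of the length covered in each library the difference at Cdx2 was −17.4 bp per covered Mb and missed 0.05 (exact permutation p = 0.105), whereas that at Gata6, 23.3, met it (exact permutation p = 0.045). H3K27ac at Gata6 covered 17.8, 23.2 and 19.4 kb in HFD females, 16.8, 15.4 and 18.4 kb in LFD females, 18.6, 16 and 18 kb in HFD males and 19.2, 20.2 and 18.4 kb in LFD males. The groups overlapped in both sexes, and the difference of the effects was −5.0 kb (exact permutation p = 0.035, adjusted p = 1), with a p of at most 0.05 for 3.66% of genes. It missed 0.05 without any of 4 single libraries, replicate 2 of each sex and diet, with −6.17 to −3.47 kb over all libraries left out, and as a share of the covered length (exact permutation p = 0.225). Across all genes, 0% passed an adjusted p of 0.05 in either test.

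In recipients, H3K27ac at the 7 loci did not differ by donor at a permutation p of at most 0.05, which 3.84% of 17841 genes met. The smallest was 0.16, at Cdx2, with −0.96 kb for HFB against LFB (−1.67 kb and past 0.05 without HFDHFB replicate 2), and no donor groups were separated at the 7, against 13.1% of genes on the HFD and 6.63% on the LFD. By the recipients' own diet, 6 of the 7 had more covered length on the HFD, all but Cdx2, and 1 met a p of at most 0.05, Hnf4g. H3K27ac at Hnf4g covered 39.6 and 45.0 kb in HFDHFB, 40, 38.8 and 36 kb in HFDLFB, 27.4, 33.4 and 33.0 kb in LFDHFB and 37.8, 30.4 and 24.8 kb in LFDLFB. All HFD-fed values lay above those of LFDHFB, and 1 LFDLFB library lay among them. The difference was 9.15 kb (exact permutation p = 0.01, adjusted p = 0.208). A p of at most 0.05 was met by 16.1% of all genes, and with the HFD higher by 15.5%, so 1 of 7 is near this background, and 0% passed an adjusted p of 0.05. The diets were separated at 3 of the 7 with HFB (Hnf4g, Cdx1 and Klf5), where 22.9% of genes were, and at 1 with LFB (Hnf4a), where 14% were. Peaks of the HFD-fed libraries covered 107 to 132 Mb in HFDHFB and 115 to 123 Mb in HFDLFB, against 98.8 to 105 Mb in LFDHFB and 93.1 to 117 Mb in LFDLFB. As a share of the length covered in each library, Hnf4g and Klf4 remained higher on the HFD, whereas Hnf4a, Cdx1, Klf5 and Gata6, 4 of the 6, changed sign. At Hnf4a the difference was 4.6 kb (exact permutation p = 0.085), at Klf5 2.28 kb (0.12), at Klf4 1.75 kb (0.16), at Gata6 1.53 kb (0.345) and at Cdx1 1.22 kb (0.06). At Cdx2 it was −1.03 kb (0.105). The RNA of Hnf4g in the same design gave −0.41 ± 0.24 with HFB and 0.14 ± 0.24 with LFB on the log2 scale for HFD against LFD, neither past the threshold.

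HNF4a peaks were called in each of 4 male libraries, which held 22640 and 22506 peaks on the HFD and 27766 and 21308 on the LFD. Of the 42 merged sites at the 7 loci, 11 were at Hnf4a, 13 at Hnf4g, 5 at Cdx1, 5 at Cdx2, 4 at Gata6, 3 at Klf4 and 1 at Klf5. A peak in all 4 libraries was found at 11 of them (26.2%), against 17.2% of all merged sites. These 11 were at Hnf4a (3), Hnf4g (3), Cdx1 (2), Cdx2 (2) and Klf5 (1), and neither Klf4 nor Gata6 had such a site. In the genome 20.7% of genes had at least 1 in their window, and 5 of the 7 factors did. At the other end, 16 sites (38.1%) had a peak in 1 library, against 55.3% of all sites. The windows differ in length, and a long one has room for more sites.

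Within 500 bp of an own start there were 7 sites. The site at Cdx2, at −201 bp, was the only one of them with a peak in all 4 libraries. Of the 2 starts of Hnf4g, the downstream one had a site in 3 libraries at −140 bp, and Klf4 had a site in 2 libraries at −191 bp. The sites near starts of Hnf4a (−243 bp), Cdx1 (331 bp), Gata6 (−3 bp) and the other start of Hnf4g (−94 bp) were each in 1 library, and Klf5 had none. The sites at Hnf4a found in all 4 libraries lay at 13301, 24502 and 30290 bp from the nearest of its starts. Those at Hnf4g lay in introns, at 10070 bp from the upstream start and at −53216 and −51065 bp from the downstream one.

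**Figure D5:**
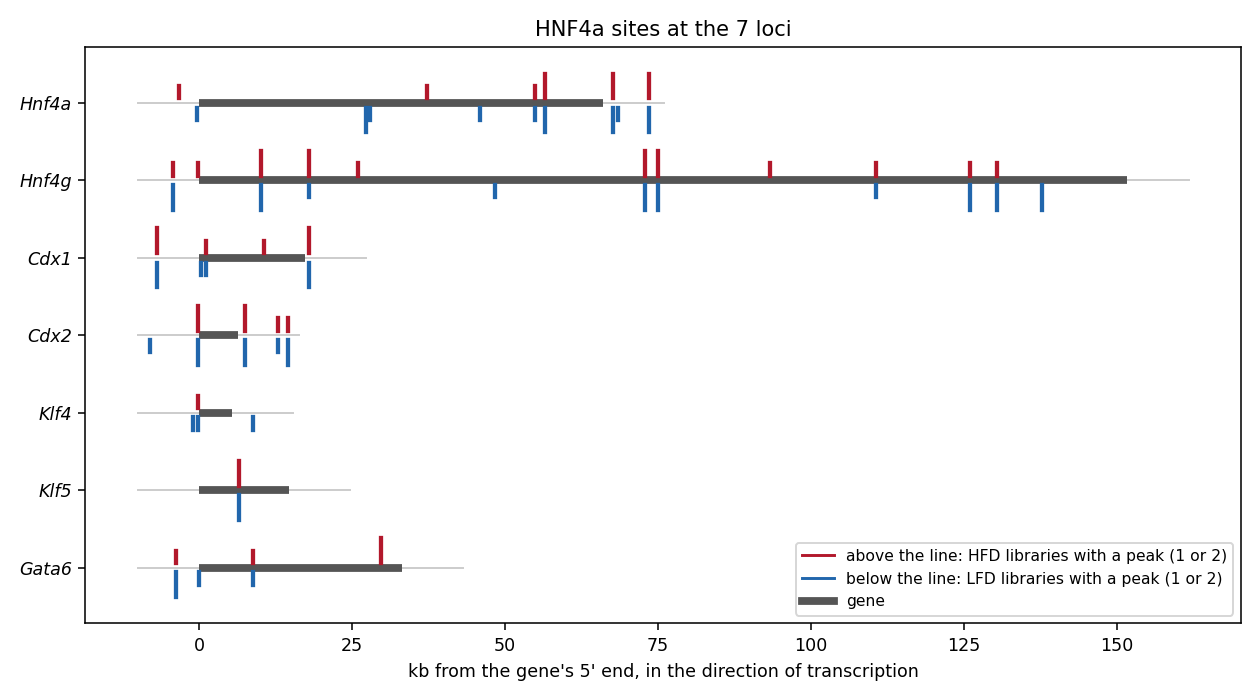
HNF4a sites at the 7 loci by distance in kb from the 5′ end of the gene in the direction of transcription. Ticks above the line give the number of HFD libraries with a peak and ticks below it that of LFD libraries. Sites with a peak in all 4 libraries occur at Hnf4a, Hnf4g, Cdx1, Cdx2 and Klf5, and none at Klf4 or Gata6.

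Sites at these genes lay under histone peaks more often than HNF4a sites in general. Of the 42, 31 (73.8%) lay under H3K27ac in all 6 long-term male libraries, against 49.5% of all sites, and 32 (76.2%) under H3K4me1, against 60.5%. These windows are densely marked, as given above, and the shares were not tested. Motifs were searched on both strands in the central 200 bp. An exact HNF4 core was found at 3 of 42 sites (7.14%), against 12.2% of all sites and 1.30% of equal windows 1000 bp away. Here and below, the shares away are of windows beside all sites, not beside the 42. With at most 1 mismatch it was found at 18 (42.9%), against 46.3% of all and 20.3% away. Among the 11 sites with a peak in all 4 libraries, an exact HNF4 core was found at 2 (18.2%), against 26.0%. With at most 1 mismatch it was found at 6 of these 11 (54.5%), against 75.1%. A CDX2 core was found at 15 sites (35.7%), against 14.8% of all sites and 7.35% away, and among the 11 sites with a peak in all 4 libraries at 4 (36.4%), against 17.4%. Of the Hnf4a sequences printed above, those at +24502 and +30290 hold 2 such cores each and that at +13301 holds none. KLF cores (GGGTGTGG or GGGCGTGG) were found at 2 sites (4.76%, against 6.93% of all sites), GATA cores (AGATAA) at 3 (7.14%, against 12.6%) and AP-1 cores (TGAGTCA or TGACTCA) at 6 (14.3%, against 10.1%). A match of these letters is a description of the sequence and says nothing of binding by CDX2.

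By diet, 3 of the 42 sites (7.14%) had a peak in both libraries of 1 diet and in neither of the other, against 5.03% of all sites. The site at Gata6, 29782 bp from its start, was found on the HFD alone, and the sites at Hnf4a (−2946 bp) and Hnf4g (11611 bp) on the LFD alone. Libraries of 2 against 2 cannot give an exact permutation p below 0.333, so these are presence and absence in 4 lists. The lists held 22 and 21 peaks at the 7 loci on the HFD and 25 and 28 on the LFD.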

How the data were processed

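Processed files of C57BL/6 mouse colon were used. Per the labels, the authors aligned ChIP-seq reads with Bowtie 0.12.8, removed duplicates with Picard 1.110 and called peaks with SICER (window 200 bp, gap 200 bp for H3K27ac and 400 bp for H3K4me1, FDR 0.001) or HOMER (HNF4a). RNA-seq reads were aligned to mm9 with STAR 2.5. The deposited RNA-seq table holds read counts as featureCounts 1.5.0-p1 gave them, without normalization by the authors. Deposited peak lists give start and end only, 1 list per library, and HOMER peaks have 1 fixed width per library (220 to 242 bp). DNA input libraries and gene arrays were not used here. Whether the counting used strand is not stated in the sources used here.

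Counts were analysed with edgeR 4.0.16 in R 4.3.3 (TMM, filterByExpr, robust quasi-likelihood F-tests, 4 groups in 1 fit, Benjamini-Hochberg over 15893 genes). Log2 CPM used a prior count of 2. DESeq2 1.42.0 was an alternative. Exon lengths, transcript starts and sequence came from GENCODE vM1 and the mm9 genome. Length under peaks within 10 kb was computed for every gene and tested by exact permutation within strata (400 or 200 relabellings). HNF4a peaks that shared 1 bp or more formed 1 site. Alternatives covered normalization, filtering, scaling to epithelial markers, a replicate block, covered length as a share of each library's total, and each library left out. Steps were tested on simulated data. The 7 genes are always named, with the 3 most similar genes of each, and list genes only past an adjusted p of 0.05, unless stated. The genes and lists were chosen with earlier results of these data known.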

Additional observations from a re-analysis of the deposited data

Results flagged for a closer look

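The effect of bacteria on Cdx1 differed between the diets by 0.50 on the log2 scale at an unadjusted p = 0.0436 (edgeR), and not after adjustment over all genes (adjusted p = 0.434). The effect of long-term diet on covered length differed between the sexes at Gata6 for H3K27ac, by −5.0 kb for males minus females (exact permutation p = 0.035, adjusted p = 1). It also differed at Cdx2 for H3K4me1, by −5.2 kb (exact permutation p = 0.01, adjusted p = 1). As a share of the length covered in each library, neither difference had a p of at most 0.05, with an exact permutation p of 0.225 at Gata6 and 0.105 at Cdx2. The sexes were permuted within each diet, so a difference between the sexes on either diet can enter these p-values.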

How the results depend on the processing

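None of the 7 factors passed an adjusted p of 0.05 for expression under any alternative or with any library left out, in any of the 5 comparisons. Scaling to epithelial markers moved the median log2 fold change of all genes to −0.21, 0.22, −0.45, −0.16 and 0.28 (bacteria on the HFD, bacteria on the LFD, interaction, diet with HFB, diet with LFB). Signs were followed for all 7 factors in the comparisons of bacteria, but only for some in the others. These were Hnf4g, Cdx1 and Cdx2 for the interaction and diet with HFB, and Hnf4g and Cdx1 for diet with LFB. Among the values followed, 6 turned sign, none of them called, and the rest were not counted. The 6 were Klf4 (−0.12) and Gata6 (−0.12) for bacteria on the HFD, Hnf4a (0.094), Klf4 (0.066) and Gata6 (0.034) for bacteria on the LFD, and Cdx2 (−0.0052) for the interaction. With each library left out, signs of the values followed turned within −0.21 to 0.0095 (Hnf4a), −0.12 to 0.22 (Klf4) and −0.093 to 0.23 (Gata6) for bacteria on the HFD. For bacteria on the LFD they turned within −0.19 to 0.097 (Hnf4a), −0.42 to 1.02 (Cdx2), −0.28 to 0.19 (Klf4), −0.36 to 0.043 (Klf5) and −0.22 to 0.033 (Gata6), always without LFDHFB replicate 3 among others, for the interaction within −0.17 to 1.26 (Cdx2, without LFDLFB replicate 2), for diet with HFB within −0.049 to 1.06 (Cdx2) and for diet with LFB within −0.12 to 0.36 (Hnf4g). As a share of each library's covered length, the number of the 7 with a permutation p of at most 0.05 was 1 for long-term H3K27ac, 3 for H3K27ac by recipient diet (Hnf4a, Hnf4g and Cdx2), 0 for H3K27ac by sex and 1 for H3K4me1 by sex, Gata6 (23.3) in place of Cdx2 (−17.4). The shares of all genes given above are for covered length in kb, so these numbers stand without a background. In bp per covered Mb, recipient diet then gave −36.6 at Hnf4a, −22.3 at Cdx1, −6.86 at Klf5 and −10.7 at Gata6, all 4 of the opposite sign, −37.5 at Cdx2, 39.5 at Hnf4g and 2.10 at Klf4. Long-term diet gave −20.6 for H3K27ac and −0.88 for H3K4me1 at Hnf4a, both of the opposite sign, as was H3K4me1 at Hnf4a without the 10 kb extension (−0.47 kb). The cause was not tested. With each library left out, Hnf4a ran from −0.083 to 4.07 kb for long-term H3K27ac and −0.083 to 0.53 kb for H3K4me1, and the numbers of the 7 ran from 0 to 1 for long-term H3K27ac (1 without LFD male replicate 2), 0 to 1 for recipient bacteria (1 without HFDHFB replicate 2), 1 to 3 for recipient diet (3 without HFDHFB replicate 2), 0 to 1 for H3K27ac by sex and 1 to 2 for H3K4me1 by sex (2 without LFD male replicate 2). HNF4a sites with a peak in 1 diet alone rose from 3 to 8 or 9, since fewer libraries then have to share or lack a peak. Replicate numbers do not pair the libraries, with correlations of −0.59 to 0.45 between same-numbered RNA-seq libraries and −0.55 to 0.17 for ChIP-seq. With a replicate block 0 of the 7 were called for expression, and 0 had a p of at most 0.05 for either long-term mark. The genes with a p of at most 0.05 numbered 340 in place of 813 for H3K27ac and 394 in place of 770 for H3K4me1. Swaps within replicate pairs allow fewer relabellings and a larger smallest p, so these counts are not on the same footing. Apart from libraries left out, 192 of the 212 alternative values followed kept their direction and their side of the threshold, 13 changed sign, 3 counts moved, and of the remaining values 2 passed and 2 lost the threshold. The 212 leave out the factors not followed for expression and, for peaks, most loci outside the comparison by recipient diet. edgeR without robust estimation, chosen after seeing the data, called 0 of the 7. Over all genes, edgeR called 6 for diet with HFB without HFDHFB replicate 1, none of them among the 7, and 0 in every other comparison with a library left out. Precision is limited by 2 or 3 libraries per group and, for peaks, by unknown depth.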
